A study of Mus musculus with 3 samples.

Results

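The expression of 9 genes of the loop between Indian hedgehog and parathyroid hormone-related protein (PTHrP) that paces the growth plate was followed across single cells sorted from mouse bone. They were Ihh, Pthlh, Pth1r, Ptch1, Smo, Gli1, Gli2, Gli3 and Hhip, found by their symbols among the 32285 genes of the count matrices, and all 9 were present. The cells were wild-type (WT) Alcam+Sca-1- bone lining cells (BLCs), gated as CD45-, Ter119- and CD31- after collagenase digestion of femora, tibias and iliac bones, and were prepared as 3 libraries of 1 group. There was no treatment, time course or second genotype, so the comparisons below were between kinds of cells within the same 3 libraries. Neither age, strain nor sex was given in the labels, and how many animals went into a library was not given in the sources used here.

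In the growth plate, chondrocytes pass from a resting zone through proliferating columns to hypertrophy. Cells that leave the columns make Ihh, the ligand that binds the receptor Ptch1 and so releases the transducer Smo, which acts through the transcription factors Gli1, Gli2 and Gli3. Ptch1, Gli1 and Hhip, a membrane protein that binds and holds Hedgehog ligands, are also targets of the pathway. Pthlh encodes PTHrP, made towards the ends of the growth plate, and its receptor Pth1r on columnar and prehypertrophic cells holds back hypertrophy through cyclic AMP. Osteoblasts use the same receptor for parathyroid hormone.

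Unique molecular identifiers (UMIs) summed to 20985636, 79905165 and 69890252 in replicates 1, 2 and 3, and 18232 cells were kept, with medians of 5614, 9704 and 5814 UMIs per cell. Replicate 1 stood apart in its make-up, with 222 chondrocyte-like cells of 2476, against 4844 of 6363 in replicate 2 and 7062 of 9393 in replicate 3. The summed profiles of replicates 2 and 3 correlated across genes with r = 0.9982, and replicate 1 with either at 0.9531 and 0.9521. Pairs of libraries shared 5, 9 and 28 cell barcodes. In these 3' counts the RNA of the gate gene Alcam reached 14.0 ± 3.05 CPM in chondrocyte-like and 79.0 ± 57.8 CPM in osteoblast-like cells (SD, n = 3). Levels of the other gate genes are not given here. CPM, the unit used throughout, is the count of a gene scaled to the same fixed total of UMIs in each population and library.

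Cells were clustered without the 9 genes and without 44 further genes of the pathways, so that no member helped to form the populations it is described in. Chondrocyte-like populations, named from collagen and aggrecan genes, held 12128 of 18232 cells (66.5%), although the gate is named for bone lining cells. The other named mesenchymal populations, which were osteoblast-, CXCL12-abundant reticular (CAR)-, tendon-, fibroblast- and mural-like, held 2865 cells, of which 959 were osteoblast-like. Cells of named blood lineages, called blood-forming below, numbered 803 (4.40%) despite the CD45- and Ter119- gate. They were erythroid- (442), neutrophil- (185) and plasma cell-like (176), so the name does not mean stem or progenitor cells. The unnamed cluster 14 (330 cells), whose best list was that of myeloid progenitors, was not counted among them. The 803 cells served as the background for shares of cells with a UMI.

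There were 8 chondrocyte-like populations. Columnar chondrocyte-like cells (Ucma, Matn3, Prkg2) came as clusters 3 and 6, and a small cycling population accompanied them. The Wnt-responsive chondrocyte-like population was named from 3 detected markers, Lef1 (425 ± 135 CPM), Notum (169 ± 10.0 CPM) and Sfrp5 (148 ± 48.1 CPM), whereas the Wnt target Axin2 stood at 4.72 ± 0.868 CPM there and at 5.93 ± 1.397 CPM in cluster 2. No cluster met the rule for a hypertrophic-like name. Cluster 2 had the bone sialoprotein gene Ibsp at 50346 ± 13797 CPM and the hypertrophy collagen Col10a1 at 460 ± 179 CPM. Its best-scoring state list was that of Wif1, Cytl1 and Myoc (score 2.119). Its leading genes held 2 hypertrophic markers against 1 of that list, so it kept its number. Col10a1 was highest, at 619 ± 43.9 CPM, in cluster 4, here called the Col10a1-highest population, whose leading genes were Prg4 and Cytl1 of articular cartilage. Cluster 4 met the rule for the state of Wif1, Cytl1 and Myoc (score 2.918). That name was replaced by the rule for a missing hypertrophic-like cluster. Superficial chondrocyte-like cells, cluster 7 (Msmp, Prg4, Gas1) and cluster 21 completed the set. Cluster 21 held 67 cells with medians of 929 and 1459 UMIs per cell in the 2 libraries that had it, and no UMI of Ihh or Gli2, and its part in each contrast is given below.

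Promoter windows of 250 bases before the start sites were read for the members from RefSeq (GRCm38.p6), with a window found for each member except Gli1. They are shown for the ligand gene Ihh and for Hhip, whose highest state was separated from all others, with the matches to 2 motifs in capitals: the GC box GGGCGG and the cyclic AMP response element TGACGTCA, each on both strands. The Ihh window lies at chr1:74951673-74951922 and the Hhip window at chr8:80058009-80058258, both on the minus strand and both directly before the first exon.
Ihh: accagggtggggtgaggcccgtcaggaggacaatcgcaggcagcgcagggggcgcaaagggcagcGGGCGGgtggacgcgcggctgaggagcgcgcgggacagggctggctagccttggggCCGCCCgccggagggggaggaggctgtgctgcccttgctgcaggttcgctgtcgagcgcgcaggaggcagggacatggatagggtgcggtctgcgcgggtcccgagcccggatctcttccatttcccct
Hhip: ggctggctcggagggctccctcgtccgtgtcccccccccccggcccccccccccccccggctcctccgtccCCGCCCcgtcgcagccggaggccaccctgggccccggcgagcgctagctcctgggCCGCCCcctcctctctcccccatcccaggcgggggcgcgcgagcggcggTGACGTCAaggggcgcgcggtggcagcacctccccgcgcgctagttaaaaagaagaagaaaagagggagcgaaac
Both windows held 2 GC boxes. At least 1 GC box was found in 8 of 10 member windows (some genes have more than 1) and in 32.7% of all 32851 promoter windows. The member windows were 56.0% to 78.4% G and C, beside a median of 52.4%, and the part of this in the GC boxes was not tested. Hhip alone among the members held the cyclic AMP response element, which 1.55% of windows hold. No member window held the GLI core CCACCCA (8.11% of windows) or the TCF/LEF letters CTTTGAA (4.46%), and the RUNX letters TGTGGT (14.0%) occurred only in a window of Gli3. These matches describe letters in a window and were not tied to any measurement.

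Ihh, the Hedgehog ligand, was rare: 280 UMIs in 116 of 18232 cells. Of these UMIs, 266 (95%) lay in chondrocyte-like cells, with 122 (43.6%) in cluster 2 and 112 (40.0%) in columnar cells. Cluster 2 held 12.3% and columnar cells 19.1% of all cells, but columnar cells were deeper. Their medians were 17272.5 and 9777 UMIs in replicates 2 and 3, against 9704 and 5814 in all cells. Scaled for depth, Ihh stood at 3.28 and 1.28 CPM in columnar cells and at 2.34 and 1.36 CPM in all cells of these libraries. In cluster 2, Ihh stood at 34.5, 6.93 and 5.74 CPM in replicates 1, 2 and 3, from 13, 58 and 51 UMIs. The value of replicate 1 came from 45 cells and lay above the other 2, whose exact 95% Poisson intervals, 5.27 to 8.97 and 4.28 to 7.55 CPM, overlapped. The range of cluster 2 was not separated from that of cluster 7, the next in order, at 11.5, 0 and 0.240 CPM. The 11.5 CPM of cluster 7 came from 3 UMIs in 1 cell of replicate 1. In the columnar cluster 3, Ihh stood at 4.28 CPM in replicate 2 and 1.83 CPM in replicate 3, and in the columnar cluster 6 at 0.293 and 0 CPM.

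Few cells carried most of the transcript. A single columnar cell held 24 Ihh UMIs and a single cell of cluster 2 held 15, while 76 of the 116 cells held 1 UMI each. No Ihh UMI was counted in osteoblast-like, CAR-like, superficial, cluster 21 or blood-forming cells. A count of 0 allows, at 3 UMIs, up to 19.8, 2.04 and 2.72 CPM in the osteoblast-like cells of replicates 1, 2 and 3, and up to 51.0 and 54.1 CPM in cluster 21, so the last cannot bear on Ihh at this depth. The Col10a1-highest population held 5 UMIs, at 0, 0.350 and 0.438 CPM. Outside cartilage, 12 UMIs lay in 4 fibroblast-like cells of replicate 1, with none in replicates 2 and 3.

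Pthlh, the PTHrP gene, was highest in another state than Ihh. In Wnt-responsive cells it stood at 53.7, 73.3 and 84.3 CPM in replicates 1, 2 and 3, above every other population taken whole, with no overlap with the next in order. The columnar cells split in this gene: cluster 6 stood at 79.4 and 77.6 CPM in replicates 2 and 3, and cluster 3 at 10.0 and 6.84 CPM. Cluster 2, the richest in Ihh, had 2.66, 10.3 and 8.67 CPM.

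Pthlh was not limited to cartilage. Fibroblast-like cells had 22.5, 35.5 and 32.4 CPM and tendon-like cells 30.6, 17.8 and 12.9 CPM, with ranges that overlapped each other and that of cluster 7 (7.67, 29.2 and 34.6 CPM). Osteoblast-like cells held 0, 2 and 4 UMIs and CAR-like cells 3, 0 and 0. At least 1 Pthlh UMI was seen in 18.0% ± 8.18 of Wnt-responsive cells (SD, n = 3) and in 0.518% ± 0.897 of blood-forming cells. When cells were thinned to 1000 UMIs and shallower cells left out, these shares were 5.16% ± 1.18 and 0.200% ± 0.346. The cells left out were 4, 1 and 11 Wnt-responsive and 55, 11 and 26 blood-forming cells in replicates 1, 2 and 3.

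**Figure D1:**
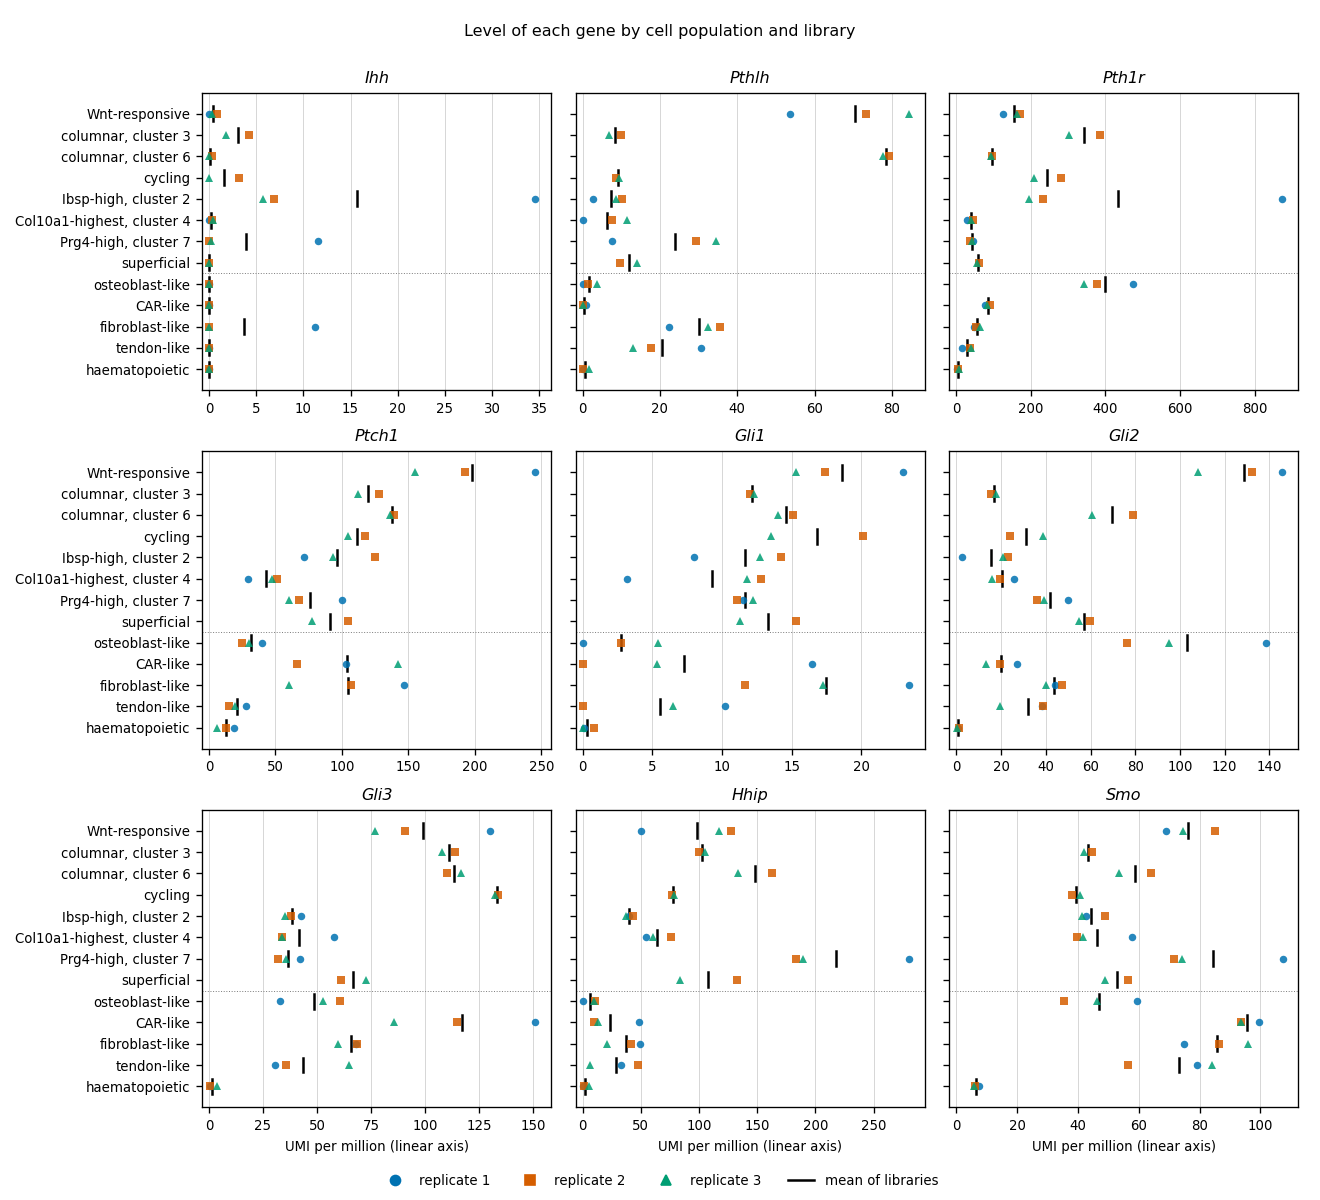
Levels of the 9 genes in scaled UMIs (CPM, linear axis starting at 0, one scale per panel) by population, with 1 point for each library of at least 20 cells and a bar for the mean. Ihh is highest in cluster 2, where replicate 1 reaches 34.5 CPM, and Hhip in cluster 7 (183 to 280 CPM). Pthlh is high in both Wnt-responsive cells (53.7 to 84.3 CPM) and columnar cluster 6 (79.4 and 77.6 CPM in replicates 2 and 3), with overlapping ranges.

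Pth1r, the receptor shared by PTHrP and parathyroid hormone, was carried by both cartilage and bone cells. Cluster 2 stood at 874, 232 and 194 CPM in replicates 1, 2 and 3 and osteoblast-like cells at 475, 378 and 344 CPM. Without replicate 1, the values of cluster 2 lay below those of osteoblast-like, columnar and cycling cells in each library. The 8 genes of the osteoblast list summed in cluster 2 to 14153 CPM in replicate 1 and to 2220 and 1791 CPM in replicates 2 and 3, with all 8 detected in each library, against 80213 to 154313 CPM in osteoblast-like cells and 212 to 304 CPM in the other chondrocyte-like cells. The 11 genes of the chondrocyte list summed in cluster 2 to 14764 CPM in replicate 1 and to 47091 and 47078 CPM in replicates 2 and 3. Osteoblast-like cells had 4530, 12625 and 12057 CPM and the other chondrocyte-like cells 11776, 64461 and 54268 CPM in replicates 1, 2 and 3. The chondrocyte list was thus low in all 3 sets of cells in replicate 1. The replicate 1 cells behind the highest values of Ihh and Pth1r were therefore high in bone markers for this cluster, and 1 of them held 91 of the 329 Pth1r UMIs. The part of these markers in either level was not tested.

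Columnar cluster 3 had Pth1r at 385 and 302 CPM in replicates 2 and 3, and cycling cells at 280 and 208 CPM. Columnar cluster 6, rich in Pthlh, stood lower, at 96.3 and 94.2 CPM. Wnt-responsive cells had 127, 171 and 164 CPM and CAR-like cells 78.2, 91.6 and 83.0 CPM, with no overlap between them. The lowest chondrocyte-like populations were the Col10a1-highest (29.0, 45.4 and 40.1 CPM) and cluster 7 (46.0, 37.4 and 42.5 CPM), whose ranges overlapped. Pth1r UMIs were seen in 57.4% ± 6.37 of cells of cluster 2, 54.8% ± 11.03 of osteoblast-like cells and 3.67% ± 2.55 of blood-forming cells. Thinned, the same shares were 18.7% ± 5.99, 28.8% ± 2.83 and 0.399% ± 0.691, with 3, 44 and 130 osteoblast-like cells and 2, 6 and 10 cells of cluster 2 left out as too shallow. The thinned shares therefore cover the deeper osteoblast-like cells.

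Ptch1, receptor and target of Hedgehog, was highest in Wnt-responsive cells, at 245, 193 and 155 CPM, with no overlap with the columnar cells that came next (131 and 119 CPM). The 2 columnar clusters were close in Ptch1, at 128 and 112 CPM in cluster 3 and 139 and 136 CPM in cluster 6. Cluster 2, which held the most Ihh, had 71.7, 125 and 93.3 CPM. The Col10a1-highest population stood at 29.0, 51.0 and 47.7 CPM and osteoblast-like cells at 39.6, 24.5 and 29.9 CPM, with overlapping ranges. Among other cells, CAR-like cells had 103, 66.2 and 142 CPM, and a fibroblast-like cluster of 66 cells in replicate 1 (cluster 20) reached 261 CPM. Blood-forming cells had 19.1, 12.6 and 6.30 CPM, the highest mean background of any member.

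Smo, the transducer, stood at 99.5, 93.5 and 93.8 CPM in CAR-like cells, its highest mean. Fibroblast-like cells (74.8, 86.5 and 96.1 CPM), cluster 7 (107, 71.7 and 74.2 CPM) and Wnt-responsive cells (69.0, 84.9 and 74.6 CPM) overlapped in range. Columnar, cycling, cluster 2 and Col10a1-highest cells lay between 37.9 and 57.9 CPM in every library with at least 20 cells of them.

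Gli1, the transcription factor most often read as a mark of Hedgehog activity, was low throughout. Wnt-responsive cells stood at 23.0, 17.4 and 15.3 CPM, fibroblast-like cells at 23.4, 11.7 and 17.3 CPM, and columnar cells at 12.8 CPM in both libraries. Osteoblast-like cells held 0, 4 and 6 UMIs, at 0, 2.72 and 5.44 CPM, below every library of the Wnt-responsive and columnar populations, although the 0 of replicate 1 allows up to 19.8 CPM. Gli2, the main activator, was highest in Wnt-responsive cells (146, 132 and 108 CPM) and in osteoblast-like cells (138, 76.3 and 95.2 CPM), whose ranges overlapped. As for Pthlh, columnar cluster 6 (78.9 and 60.6 CPM) lay above cluster 3 (15.7 and 17.7 CPM). In cluster 2, Gli2 was at 2.66 CPM, from 1 UMI, in replicate 1 and at 23.2 and 20.9 CPM in replicates 2 and 3.

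Gli3, which is processed to the pathway's main repressor, followed another order. Cycling cells (134 and 132 CPM), CAR-like cells (151, 115 and 85.7 CPM), columnar cells (113 and 111 CPM) and Wnt-responsive cells (130, 90.9 and 76.7 CPM) came first, and no neighbours in this order were separated. Cluster 2 (42.5, 37.8 and 35.2 CPM), the Col10a1-highest population (57.9, 34.0 and 33.7 CPM) and cluster 7 (42.2, 32.1 and 35.5 CPM) lay below all of them.

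Hhip, the ligand-binding inhibitor, was highest in cluster 7, at 280, 183 and 190 CPM, separated from the unnamed cluster 5 that came next (107, 130 and 137 CPM) and from the columnar cells (115 and 114 CPM). Columnar cluster 6 stood at 163 and 133 CPM and cluster 3 at 99.6 and 106 CPM. Cluster 2 was the lowest of the larger chondrocyte-like populations, at 39.9, 43.2 and 37.4 CPM. Osteoblast-like cells had 0, 10.2 and 9.98 CPM of Hhip, the 0 again allowing up to 19.8 CPM, and CAR-like cells 48.6, 9.74 and 13.4 CPM.

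The first comparison asked where the loop lay between cartilage and the other sorted mesenchymal cells. Ptch1, Hhip, Gli1, Pth1r and Pthlh were higher in chondrocyte-like than in the other mesenchymal populations, and Gli2 and Smo were lower. On the log2 scale the differences were 0.98 ± 0.19 for Ptch1 (SE, adjusted p = 2.4e-05), 1.72 ± 0.35 for Hhip (adjusted p = 8.6e-05) and 0.97 ± 0.34 for Gli1 (adjusted p = 0.017). The receptor Pth1r was higher by 0.70 ± 0.22 (adjusted p = 0.0073) and Pthlh by 1.24 ± 0.51 (adjusted p = 0.047). Gli2 differed by -1.38 ± 0.51 (adjusted p = 0.026) and Smo by -0.50 ± 0.13 (adjusted p = 0.00099), whereas Gli3 did not pass (-0.19 ± 0.20, adjusted p = 0.53). Ihh gave no usable difference because several sums held no UMI. Thus 7 of the 9 members passed, 5 higher and 2 lower, beside 40.9% of all 15797 genes tested, 11.2% higher and 29.7% lower, with a median of -0.34 over all genes. Only populations with sums of at least 20 cells in at least 2 libraries entered, so mural-like cells (60, 1 and 1 cells) did not. Those that entered weighed equally, and the adjusted p-values are from edgeR's quasi-likelihood test with Benjamini-Hochberg adjustment over all genes. They measure the scatter left in the sums after the population and library terms, estimated over all populations of these 3 libraries together.

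The lower values of Gli2 and Smo rested on cluster 21. Without it Gli2 differed by 0.06 ± 0.15 and Smo by -0.13 ± 0.10 (adjusted p = 0.82 and 0.34), and 6 members were higher and none lower, beside 27.7% of genes higher and 20.5% lower (48.3% in all), with a median of 0.11. The 6 were the 5 above, with Ptch1 at 1.31, Hhip at 2.15, Gli1 at 1.23, Pth1r at 0.83 and Pthlh at 1.67, and Gli3 at 0.33 ± 0.14 (adjusted p = 0.043). Among single libraries, Gli1 passed without replicate 1 (2.11) and replicate 3 (1.51) but was -0.36 without replicate 2 (adjusted p = 1). Hhip and Ptch1 passed without any 1 library, from 1.60 to 2.47 and from 0.82 to 1.41, with the top values without replicate 1. Pth1r was 0.78 without replicate 2 (adjusted p = 0.087), 0.089 with sums of at least 50 cells (adjusted p = 0.73) and -0.13 without doublet removal (adjusted p = 0.62), and Pthlh was 1.17 without replicate 2 and 0.59 without replicate 3 (adjusted p = 0.12 and 1), and 2.83 without replicate 1. Gli2 and Smo missed the threshold without any 1 of the 3 libraries, with Gli2 from -1.24 to -0.91 and Smo from -0.41 to -0.18.

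**Figure D2:**
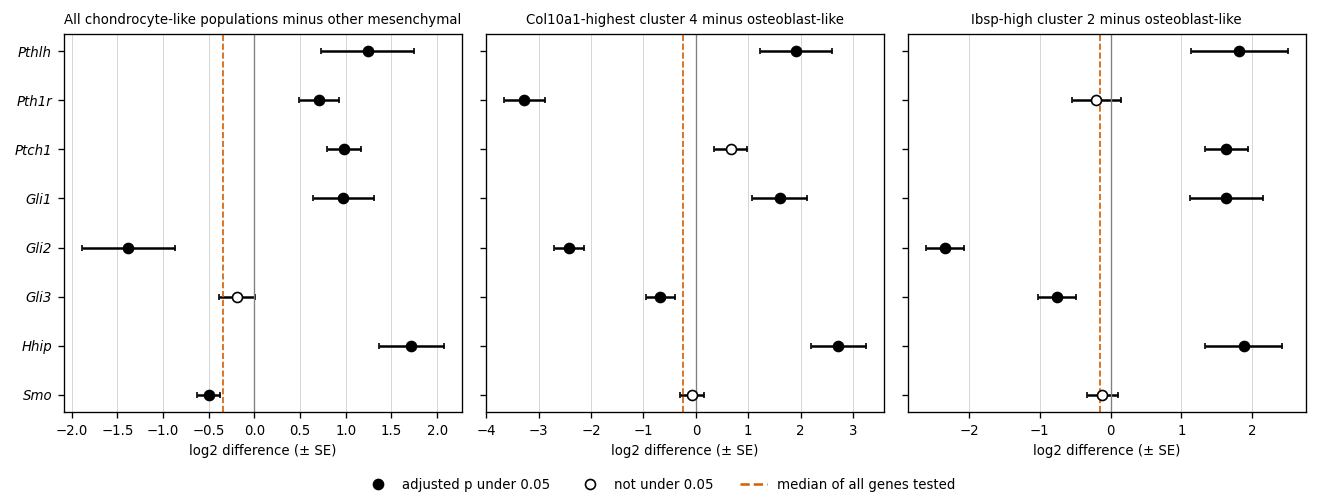
Log2 differences ± SE of 8 members (Ihh is left out because some groups hold no UMI) for all chondrocyte-like against other mesenchymal populations, for the Col10a1-highest cluster 4 against osteoblast-like cells and for the Ibsp-high cluster 2 against osteoblast-like cells. Filled points have an adjusted p under 0.05 and the dashed line is the median of all genes tested (-0.34 in the first panel). Hhip and Gli1 lie to the right and Gli2 to the left of 0 in all 3 panels, and Pth1r lies at -3.28 in the second panel and -0.20 in the third.

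Each chondrocyte-like state was then set against the others, to see where ligands, receptors and targets lay within cartilage. In the Wnt-responsive population 5 of 9 members were higher and none lower, beside 15.4% of all genes higher and 2.98% lower (18.4% in all) and a median of 0.42. Pthlh was higher by 2.55 ± 0.22 on the log2 scale (adjusted p = 1.7e-12), Gli2 by 3.27 ± 0.29 (adjusted p = 4.8e-12), Ptch1 by 1.05 ± 0.19 (adjusted p = 2.9e-05), Smo by 0.70 ± 0.16 (adjusted p = 0.00087) and Gli3 by 0.78 ± 0.22 (adjusted p = 0.0092). The ligand Pthlh, the receptor Ptch1 and the activator Gli2 thus stood together in this state. Without cluster 21 the differences were 2.33 for Pthlh, 1.87 for Gli2, 0.89 for Ptch1 and 0.51 for Smo, all past the threshold, and 0.40 for Gli3 (adjusted p = 0.096), beside 14.5% of genes higher and 7.42% lower (22% in all). Without replicate 2, Gli3 was 0.73 and Smo 0.53 (adjusted p = 0.39 and 0.41), and without replicate 3 Gli3 was 0.85 and Smo 0.61 (adjusted p = 0.16 and 0.25), while Pthlh was 3.51.

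In cluster 2, Ihh and Pth1r passed, both higher, beside 7.9% of all genes higher and 1.61% lower (9.51% in all). Ihh was higher by 4.28 ± 0.69 (adjusted p = 6.8e-05) and Pth1r by 1.91 ± 0.26 (adjusted p = 4.3e-07). Without cluster 21, whose depth could not show Ihh, they were 3.76 ± 0.52 and 2.09 ± 0.26 (adjusted p = 4.4e-06 and 2.6e-08), and Hhip (-1.22), Pthlh (-0.92), Gli2 (-0.80) and Gli3 (-0.74) were lower, so that 2 members were higher and 4 lower beside 7.8% of genes higher and 4.65% lower (12.5% in all). The size of the Pth1r difference leaned on replicate 1, being 1.17 without it and 2.63 and 2.41 without replicates 2 and 3, each past the threshold. Ihh did not enter the fit without replicate 1, and was 4.82 and 3.96 without replicates 2 and 3 (adjusted p = 0.011 and 0.044). Its place in the fit thus rested on replicate 1, where cluster 2 held its highest value of 34.5 CPM. The adjusted p-values of Ihh are therefore no support separate from that value. DESeq2 gave 3.63 for Ihh with an adjusted p of 0.78. As some of the populations it was set against held no Ihh UMI, the fitted size is no bound, and the levels above are the measure of it.

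The 2 columnar clusters were first tested as 1 population and then apart. As 1 population they had Gli3 higher by 1.06 ± 0.22 (adjusted p = 0.00022) and Pth1r by 1.01 ± 0.28 (adjusted p = 0.0068), 2 of 9 members, both higher, beside 14.0% of all genes higher and 5.32% lower (19.3% in all). Kept apart, which was chosen after seeing the data, cluster 3 had Pth1r higher by 1.64 ± 0.25 (adjusted p = 6e-07), Ihh by 3.00 ± 0.75 (adjusted p = 0.0023) and Gli3 by 1.16 ± 0.20 (adjusted p = 5.6e-06), beside 28.6% of genes called. Cluster 3 had 2 cells in replicate 1, and its Ihh came from 87 and 23 UMIs in replicates 2 and 3, with 24 in 1 cell. The limit on the test of Ihh given for cluster 2 applies here too. Cluster 6 had Pthlh higher by 2.54 ± 0.22 (adjusted p = 1.4e-13), Gli2 by 2.23 ± 0.33 (adjusted p = 4.4e-07) and Gli3 by 1.17 ± 0.20 (adjusted p = 5.7e-06), with Hhip at 0.92 and Ptch1 at 0.67 also past the threshold, 5 of 9 members beside 29.1% of genes. The direct difference between these 2 clusters was not tested. For the columnar cells as 1 population, without replicate 2, Gli3 was 1.25 and Pth1r 1.09, and without replicate 3 Pth1r was 1.27 (adjusted p = 0.06, 0.25 and 0.079). Without cluster 21 they had 5 members higher, with Ihh at 1.90, Pthlh at 0.72 and Ptch1 at 0.48 added, beside 27.2% of genes higher and 18.6% lower (45.9% in all, a share near that of the members). The same limit holds for this value of Ihh.

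Cluster 7 was the state of Hhip. There Hhip was higher by 1.71 ± 0.26 (adjusted p = 2e-06), Smo by 0.95 ± 0.16 (adjusted p = 1.5e-05), Pthlh by 1.27 ± 0.28 (adjusted p = 0.00067) and Gli2 by 1.63 ± 0.59 (adjusted p = 0.044), and Pth1r was lower, at -1.75 ± 0.34 (adjusted p = 0.00012). These were 5 of 9 members, beside 15.7% of all genes higher and 4.46% lower (20.1% in all). Without cluster 21, Gli2 was 0.17 (adjusted p = 0.60) and Gli3 was lower (-0.94, adjusted p = 0.00052), with Hhip at 1.43, Smo at 0.73, Pthlh at 0.98 and Pth1r at -1.75, beside 13.1% of genes higher and 11.8% lower (24.9% in all). Without replicate 2, Pth1r was -1.59, Pthlh 0.99 and Gli2 1.63, and without replicate 3 Pthlh was 2.08 and Gli2 1.61 (adjusted p = 0.11, 0.34, 0.33, 0.17 and 0.37).

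The Col10a1-highest, cycling and superficial populations had 2 members past the threshold each, as had cluster 2 and the columnar cells. The Col10a1-highest population had lower Pth1r (-1.61 ± 0.32, adjusted p = 0.00028) and Ptch1 (-0.78 ± 0.22, adjusted p = 0.012), beside 9.94% of all genes higher and 2.92% lower (12.9% in all). Without cluster 21, Gli2 (-0.81), Gli3 (-0.57) and Pthlh (-0.73) were lower as well, beside 11.8% of genes higher and 7.13% lower (19.0% in all). Without replicate 2 neither passed, with Pth1r at -1.55 and Ptch1 at -0.59 (adjusted p = 0.11 and 0.54), and without replicate 3 Ptch1 was -0.97 (adjusted p = 0.11). Cycling cells had higher Gli3 (1.25 ± 0.22, adjusted p = 2.4e-05) and lower Smo (-0.66 ± 0.21, adjusted p = 0.019), beside 14.0% of genes higher and 4.96% lower (18.9% in all). Without cluster 21, Pth1r was higher too (0.90) and Pthlh (-1.42) and Gli2 (-0.63) lower, beside 17.0% of genes higher and 14.3% lower (31.3% in all). Without replicate 2, Gli3 was 1.26 (adjusted p = 0.073), and Smo was -0.50 and -0.61 without replicates 2 and 3 (adjusted p = 0.69 and 0.47).

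Superficial cells had lower Pth1r (-1.18 ± 0.38, adjusted p = 0.015) and higher Gli2 (2.23 ± 0.50, adjusted p = 0.00048), beside 26.0% of genes higher and 6.68% lower (32.7% in all). Without cluster 21 their Gli2 was 0.50 (adjusted p = 0.11) and Pth1r alone passed (-1.45), beside 13.7% of genes in either direction (27.4% in all). Without replicate 2 their Pth1r was -1.53 and Gli2 1.78, and without replicate 3 these were -1.54 and 2.01 (adjusted p = 0.20, 0.24, 0.11 and 0.12). In cluster 21 itself no member passed by edgeR's test or by DESeq2, and 2 members (Gli2 and Gli3) had an unadjusted p under 0.05 by each, beside 1.58% of genes higher and 4.14% lower (5.72% in all).

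The last comparison set hypertrophic-like cells, the known source of Ihh, against osteoblast-like cells, which use Pth1r and lie beside the same mineral. As no cluster carried the name, the Col10a1-highest cluster 4 stood in by the rule set for that case, and the Ibsp-high cluster 2 was added after seeing the data. Cluster 4 had met the rule for the Wif1, Cytl1 and Myoc state, so neither choice was a named hypertrophic-like population. Hhip, Gli1 and Pthlh were higher than in osteoblast-like cells and Gli2 and Gli3 lower under both choices. Cluster 4 gave 2.71 ± 0.52 for Hhip (adjusted p = 3.4e-05), 1.60 ± 0.53 for Gli1 (adjusted p = 0.012), 1.91 ± 0.68 for Pthlh (adjusted p = 0.021), -2.42 ± 0.28 for Gli2 (adjusted p = 1.9e-09) and -0.68 ± 0.28 for Gli3 (adjusted p = 0.044). These and Pth1r made 6 of 9 members, 3 higher and 3 lower, beside 15.2% of all genes higher and 27.3% lower (42.5% in all). Cluster 2 gave 1.88 ± 0.54, 1.64 ± 0.52, 1.82 ± 0.68, -2.34 ± 0.27 and -0.75 ± 0.27 for the same genes (adjusted p = 0.0049, 0.010, 0.030, 1.8e-09 and 0.024), and 7 of 9 members passed beside 37.6% of genes.

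The 2 choices parted at both receptors and at Ihh. Pth1r was lower in cluster 4 by -3.28 ± 0.39 (adjusted p = 2e-09) and did not pass in cluster 2 (-0.20 ± 0.35, adjusted p = 0.70). The direction of the first turned in re-clusterings, in which a cluster named hypertrophic-like, the best match of cluster 2, took the place of cluster 4. It was 0.41 without the cell filter, 0.50 at resolution 0.5 and 0.57 with members and pathway genes among the variable genes (adjusted p = 0.37, 0.31 and 0.27). Ptch1 was 0.66 ± 0.32 in cluster 4 (adjusted p = 0.092) and 1.63 ± 0.31 in cluster 2 (adjusted p = 2.6e-05). Ihh passed in cluster 2 and not in cluster 4, with the limit on its test given above. Since osteoblast-like cells held no Ihh UMI no fold is given. Without cluster 21, the difference of Gli3 in cluster 4 was -0.27 (adjusted p = 0.45) and that of Ptch1 was 1.06 (adjusted p = 0.0070), and 4 members were higher and 2 lower, beside 22.7% of genes higher and 18.9% lower (41.7% in all). By single libraries, Gli3 was -0.36, 0.10 and -0.17 without replicates 1, 2 and 3 (adjusted p = 0.12, 0.94 and 0.85). Gli1 was 1.47 and 2.40 without replicates 2 and 3 (adjusted p = 0.17 and 0.070), and Pthlh was 1.92 and 2.66 (adjusted p = 0.18 and 0.091).

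Within cluster 2, Ihh was higher in cells with more Col10a1 in replicates 2 and 3, and Pthlh, Hhip and Smo were lower there, whereas in replicate 1 the Ihh UMIs lay in the low class. Cells were cut by their own Col10a1, a split added after seeing the data, with 614 in the highest class and 1621 in the lowest. In replicates 2 and 3, Ihh stood at 10.6 and 14.1 CPM in the high class and at 5.59 and 1.96 CPM in the low class. Pthlh stood at 4.40 and 5.42 CPM against 12.5 and 10.1 CPM, Hhip at 29.5 and 30.02 CPM against 48.3 and 40.7 CPM, and Smo at 29.1 and 31.8 CPM against 56.2 and 45.8 CPM. Pth1r was higher in the high class in replicate 2 (314 against 202 CPM) and close in replicate 3 (204 against 189 CPM). In replicate 1, 32 of the 45 cells fell in the low class and held 12 of its 13 Ihh UMIs, at 47.2 CPM of Ihh and 1071 CPM of Pth1r, and the rest were too few to give a value. The relation to Col10a1 is thus a description of 2 libraries and was not seen in replicate 1. In the Col10a1-highest population the same split held 1 Ihh UMI in 490 cells of the high class and 4 in 1054 of the low class.

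Columnar cluster 3 was split by Panx3, a channel gene that marks cells entering hypertrophy, a choice made after seeing the data. Of its cells in replicates 2 and 3, 547 held a Panx3 UMI and 1521 did not. All 87 Ihh UMIs of replicate 2 lay in cells with Panx3 (10.99 CPM against 0, with an upper Poisson limit of 0.297 CPM), and in replicate 3 Ihh stood at 2.76 CPM with and 1.55 CPM without Panx3, from 8 and 15 UMIs, with overlapping Poisson intervals. Pth1r stood at 625 and 568 CPM with Panx3 and at 232 and 222 CPM without it. Hhip stood at 51.9 and 41.0 CPM against 130 and 125 CPM, and Gli2 at 10.1 and 5.51 CPM against 19.3 and 21.3 CPM. Gli3 was close in all 4 (113, 114, 115 and 106 CPM), as was Gli1 (10.9 and 10.3 against 12.7 and 12.9 CPM). Cells with a Panx3 UMI were deeper, with medians of 23020 and 13396.5 UMIs against 19031.5 and 10880, and what this depth did to the levels was not tested.

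**Figure D3:**
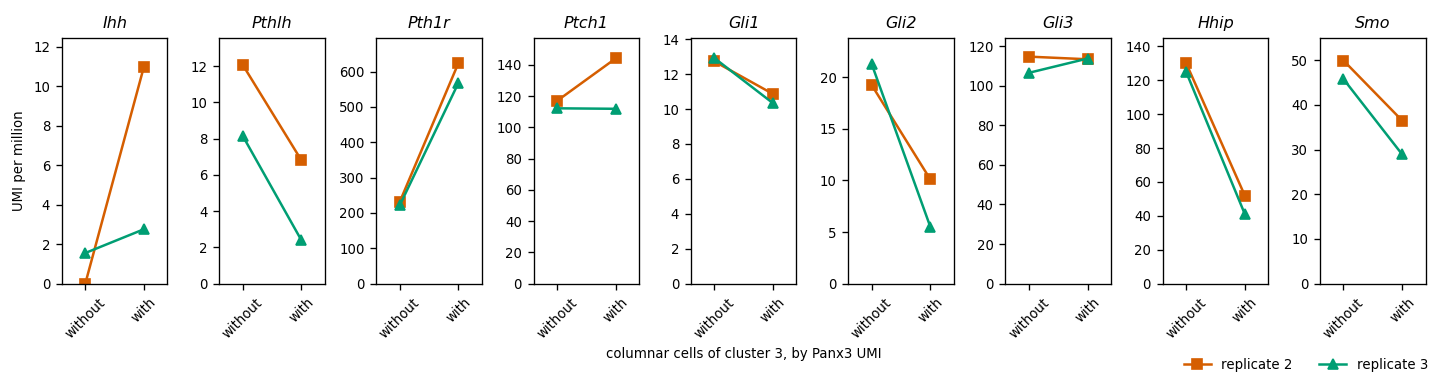
Members in cells of columnar cluster 3 with and without a UMI of Panx3, in CPM per library for replicates 2 and 3. Pth1r is above 560 CPM in both libraries with Panx3 and under 240 CPM without it, Hhip is lower with Panx3 in both, and Gli3 lies between 106 and 115 CPM in all 4 groups.

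The single cells that held Ihh were also rich in Pth1r. Among chondrocyte-like cells, 78.2% of the 110 cells with an Ihh UMI and 46.5% of the 12018 without one held Pth1r, at 990 and 191 CPM. As the former were deeper (medians of 11632 and 7698.5 UMIs), both were thinned to 1000 UMIs, which gave 40.0% and 12.3%, with 11, 53 and 112 chondrocyte-like cells of replicates 1, 2 and 3 left out as too shallow. The direction held in each library, with thinned shares of 37.5%, 52.6% and 24.4% in replicates 1, 2 and 3 against 10.3%, 13.1% and 11.9%. Among columnar cells, 91.9% of the 37 with Ihh and 66.3% of the 3451 without it held Pth1r, or 59.5% and 17.1% after thinning. In columnar cluster 3 taken whole the thinned shares were 25.7% and 23.2% in replicates 2 and 3, and the unthinned ones 90.1% and 79.7%, so the unthinned share of the Ihh cells was close to that of any cell of this cluster. The background share of Pth1r in blood-forming cells, thinned, was 0.399% ± 0.691.

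The inhibitor Hhip ran the other way: 19.1% of cells with Ihh and 37.8% of those without held it, 2.73% and 8.61% after thinning. These sets differed in make-up, as 55 of the Ihh cells lay in cluster 2. Taken whole, cluster 2 had Hhip in 23.1% and 15.6% of cells in replicates 2 and 3, 3.82% and 3.42% thinned. Columnar cluster 3 had it in 66.1% and 52.7%, 8.50% and 9.35% thinned. Pthlh stood at 7.07 CPM in the Ihh cells and 30.5 CPM in the rest, and Gli2 at 12.2 and 44.6 CPM. Whole cluster 2 had Pthlh at 10.3 and 8.67 CPM in replicates 2 and 3, and columnar cluster 3 at 10.0 and 6.84 CPM. Gli2 stood there at 23.2 and 20.9 CPM and at 15.7 and 17.7 CPM. The part of the states in these differences was not tested. Ptch1, the receptor on responding cells, stood close in cells with and without Ihh, with 45.5% and 42.3% of cells and 111 and 117 CPM. The osteoblast list summed to 12211, 3359 and 415 CPM in the Ihh cells of replicates 1, 2 and 3 and to 3518, 475 and 572 CPM in the others, with 7 or 8 of its 8 markers detected in each. Pth1r stood at 927, 1163 and 544 CPM in the Ihh cells and at 265, 210 and 166 CPM in the others of the same libraries, and the part of the osteoblast markers in this was not tested.

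**Figure D4:**
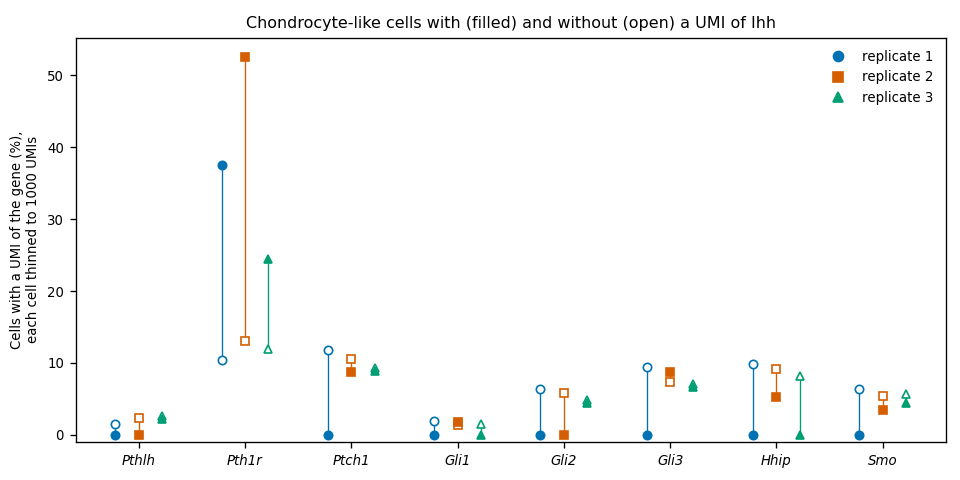
Share of chondrocyte-like cells with a UMI of each other member, after thinning to 1000 UMIs and leaving out shallower cells, in cells with and without an Ihh UMI, 1 point per library (8, 57 and 45 cells with Ihh in replicates 1, 2 and 3). The shares for Pth1r are 24.4% to 52.6% with Ihh and 10.3% to 13.1% without, and those for Hhip are lower with Ihh.

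Across the 20 sums of a chondrocyte-like population in a library, some pairs of members had like patterns. On log2 CPM centred within libraries, Hhip and Smo correlated at r = 0.781, Gli2 and Smo at 0.708, Gli2 and Gli3 at 0.689, Ptch1 and Gli1 at 0.683, Pthlh and Smo at 0.675 and Pthlh and Gli2 at 0.659. Ihh and Pth1r correlated at 0.537, and Pth1r was opposed to Hhip (-0.477) and Smo (-0.463). The points share libraries and depth, with the 2 sums of cluster 21 among them, so these values describe these sums alone.

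Over all 53 sums of at least 20 cells, 14916 genes were ranked by the likeness of their pattern to each member. Closest to Ihh was Krtap17-1, at r = 0.65, the lowest of the 9 best values, and Krtap17-1 was also among the genes used for clustering. Pthlh was most like Bnc2 and Gria1 (0.83 for both), Pth1r was most like Pkdcc (0.90) and Shox2 (0.86), and Ptch1 was most like Osmr (0.83). Gli1 was nearest to Shisa2 (0.83), Gli2 to Mrc2 (0.88), Gli3 to Amotl1 (0.93) and Wwtr1 (0.92), Hhip to Mcc (0.86) and Smo to Nfix (0.92). Pkdcc, a secreted kinase, and the homeobox gene Shox2 are both known for roles in the growth plate.

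Of 44 further genes of the 2 pathways, 41 could be tested, and they are given here by the lists they belong to. Between chondrocyte-like and other mesenchymal cells 6 were higher and 19 lower, beside 11.2% of all genes higher and 29.7% lower, with a median of -0.46 beside -0.34 for all genes. The lower ones included Adcy6, an adenylyl cyclase (-2.62 ± 0.30, adjusted p = 1.1e-09), Sufu, which restrains the Gli factors (-2.22 ± 0.28, adjusted p = 7.6e-09), and Boc, a Hedgehog co-receptor (-1.04 ± 0.17, adjusted p = 2.9e-06). Without cluster 21, 12 of 40 were higher and 12 lower, beside 27.7% and 20.5% of all genes, with Adcy6 at -1.49 and Sufu at -0.98 and the co-receptor Cdon higher (1.44 ± 0.17, adjusted p = 2.5e-09). Neither Shh nor Pth, other ligands of the 2 receptors, had a UMI in chondrocyte-like cells, and CAR-like cells held 32 UMIs of Shh, at 0 to 9.10 CPM.

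Among the states, the Hedgehog co-receptors Gas1 and Cdon parted from the columnar side of the cartilage. Gas1 stood at 1268 ± 304 CPM in cluster 7, 633 ± 22.2 CPM in superficial cells and 456 ± 90.4 CPM in the Col10a1-highest population, but at 31.6 ± 7.45 CPM in Wnt-responsive and 6.71 ± 3.29 CPM in columnar cells. Its differences were 4.27 ± 0.25 in cluster 7 (adjusted p = 3.1e-17), 2.78 ± 0.29 in superficial cells (adjusted p = 2.7e-10) and -5.16 ± 0.50 in columnar cells (adjusted p = 4.4e-11). Cdon was higher by 2.22 ± 0.20 in cluster 7 and by 1.87 ± 0.21 in the Col10a1-highest population (adjusted p = 2.4e-11 and 3e-09). Of the 6 genes of Hedgehog reception, 5 were higher in superficial cells, 4 in the Col10a1-highest population and 3 in cluster 7, with none lower, and 3 were lower and none higher in columnar cells (5 lower without cluster 21). Over all genes, 26.0%, 9.94% and 15.7% were higher in the superficial, Col10a1-highest and cluster 7 populations (13.7%, 11.8% and 13.1% without cluster 21), and 5.32% were lower in columnar cells.

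Runx2 and Runx3, factors that drive chondrocyte maturation and stand on the PTHrP side of the list, had the opposite order. Runx3 was higher by 2.97 ± 0.19 in Wnt-responsive cells (adjusted p = 8.5e-17) and by 2.66 ± 0.20 in columnar cells (adjusted p = 8.9e-15), and lower in the Col10a1-highest population (-3.68 ± 0.36, adjusted p = 6.4e-11) and cluster 7 (-3.51 ± 0.37, adjusted p = 6.2e-10). Runx2 had the same signs, at 2.06 ± 0.21, 2.29 ± 0.23, -2.54 ± 0.31 and -2.96 ± 0.33 in the same states, and was lower by -4.91 ± 0.36 in the Col10a1-highest population than in osteoblast-like cells (adjusted p = 1.7e-15). In cluster 2, where the mean level of Ihh was highest, 4 of 41 genes were higher and 1 lower, shares close to the 7.9% and 1.61% of all genes. The genes that passed included 2 that serve Hedgehog release, Scube1 (2.26 ± 0.25, adjusted p = 5.6e-09) and Disp1 (1.99 ± 0.37, adjusted p = 0.00012). Without cluster 21, Disp1 was 0.93 and Scube1 1.91, and Scube2, a relative of Scube1, was lower (-1.44 ± 0.25, adjusted p = 2.7e-05), whereas columnar cells had higher Scube2 (2.18 ± 0.19, adjusted p = 2.9e-12).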

How the data were processed

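Single cells of 3 WT libraries were profiled by 10x 3' sequencing, and the authors aligned the reads to mm10 with Cell Ranger 7.1.0 and deposited raw UMI counts per gene and barcode. Whether intronic reads were counted is not given in the sources used here. A barcode was retained when it held 200 or more genes and no more than 20% of its UMIs were mitochondrial, and the highest Scrublet scores were removed at 0.8% per 1000 cells, which took 51, 362 and 837 cells from replicates 1, 2 and 3. This left 18232 of 20307 barcodes, and the matrices used here hold fewer barcodes than the cell total stated in the study. Cells were clustered (Scanpy 1.11.5, leidenalg 0.10.2, Python 3.11.15) on 2000 variable genes, with 53 genes held out (9 members and 44 pathway genes), and clusters were named from marker lists by fixed minimum scores.

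Raw counts were summed per population and library, for sums of at least 20 cells, and tested with edgeR 4.0.16 (R 4.3.3) by the quasi-likelihood test, with population and library as terms. Contrasts took populations with sums in at least 2 libraries and weighed them equally. The p-values were adjusted by Benjamini-Hochberg over all genes tested, and the threshold was 0.05. The test was checked on simulated counts. The methods speak of independent samples but the labels do not tie libraries to animals. The p-values measure the scatter left in the sums after the population and library terms, shared over all populations of these 3 libraries. This scatter may be technical. Intervals are exact Poisson at 95%, and floors of 3 counts cover counting error only.

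The library number was taken as a block because all populations of a number came from 1 library. The members and lists were chosen with earlier results of these data known. Genes named were the members, and from the pathway lists those with the smallest adjusted p-values in each contrast, with some others of the same lists named after their values were seen. DESeq2 1.42.0, other filters, cluster resolutions, the fit without the block and leaving out each library were tried as alternatives. Leaving out cluster 21, keeping columnar clusters apart, the Panx3 split and cluster 2 against osteoblast-like cells were added after the data were seen. Levels are not compared between genes.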

Additional observations from a re-analysis of the deposited data

How the results depend on the processing

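Of 473 member differences recomputed under alternatives, 365 kept direction and side of the threshold, 95 kept direction only and 13 reversed. Between chondrocyte-like and other mesenchymal cells, Gli2 was 0.23 with only the pooled sets, 0.54 without doublet removal, 0.20 without the cell filter, 0.28 at resolution 1.5 and 0.063 without cluster 21, Pth1r was -0.13 without doublet removal, and Gli1 ranged from -0.36 to 2.11 over left-out libraries. Gli2 in cluster 7 was -0.10 with only the pooled sets. Against osteoblast-like cells, Pth1r was 0.41 without the cell filter, 0.50 at resolution 0.5 and 0.57 with members and pathway genes among the variable genes, and Gli3 was 0.080 without doublet removal and ranged from -0.36 to 0.10 over left-out libraries. The cause was not tested.

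Members called changed by over 1.5 times as follows. The number of all genes called also moved between alternatives, by the ranges given below, so these counts do not speak of the members alone. For chondrocyte-like against other mesenchymal cells (7 called) there were 4 with sums of at least 50 cells, with members and pathway genes among the variable genes and with only the pooled sets. For the Col10a1-highest population (2) there were 5 with at least 50 cells and without cluster 21, 4 without doublet removal and 7 with only the pooled sets. For cluster 2 (2) there were 1 by DESeq2, 6 with at least 50 cells, without the cell filter and without cluster 21, 5 with only the pooled sets and 7 at resolution 0.5. For columnar cells (2) there were 1 by DESeq2, 4 with at least 50 cells, without the cell filter and without doublet removal, 6 without the low-count filter and at resolution 0.5, 7 with only the pooled sets and 5 without cluster 21. For cycling cells (2) there were 5 with at least 50 cells, without doublet removal and without cluster 21, 1 with members and pathway genes among the variable genes, 6 with only the pooled sets and 4 at resolution 1.5. For superficial cells (2) there were 1 without the cell filter, at resolution 1.5 and without cluster 21, and 4 with only the pooled sets. For cluster 21 (0) there were 1 with members and pathway genes among the variable genes and 3 without the low-count filter. For hypertrophic-like against osteoblast-like cells (6) there were 3 without doublet removal.

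Leaving out 1 library gave 2 to 5 members for the first comparison, 3 to 7 against osteoblast-like cells, 0 to 2 for the Col10a1-highest, cluster 21 and superficial populations, 3 to 7 for Wnt-responsive cells, 2 to 3 for cluster 2, 2 to 5 for cluster 7, 0 to 5 for columnar and 0 to 3 for cycling cells. Without the library block, the first comparison gave 0.92 for Ptch1, 0.84 for Gli1 and 1.502 for Pthlh, and against osteoblast-like cells Gli3 was -0.63 (edgeR, adjusted p = 0.10).

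Genes called ranged from 3379 to 8655 for the first comparison (6460), from 318 to 3294 for cluster 2 (1503), from 506 to 4490 for Wnt-responsive (2908), from 962 to 11233 for columnar (3054) and from 2465 to 7197 against osteoblast-like cells (6721). They ranged from 589 to 4767 for the Col10a1-highest population (2031), from 984 to 5427 for cycling (2988) and from 572 to 5307 for superficial cells (5168). For clusters 7 (3183) and 21 (904) the ranges were 555 to 5335 and 0 to 1282. Mean levels in all chondrocyte-like cells moved to 158 (Pth1r), 135 (Ptch1), 52.2 (Gli2) and 91.4 CPM (Gli3) without doublet removal, to 163 (Pth1r), 96.6 (Ptch1) and 39.8 CPM (Gli2) at resolution 0.5, to 125 (Ptch1), 88.8 (Gli3) and 91.7 CPM (Hhip) at resolution 1.5, to 89.6 CPM (Hhip) without the cell filter, and to 41.0 (Gli2), 79.1 (Hhip) and 49.7 CPM (Smo) with members and pathway genes among the variable genes. States with no match in another clustering gave no value there. Depth limits Ihh, which had few UMIs, and replicate 1 held few chondrocyte-like cells.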
